A study of Mus musculus with 12 samples.

Results

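Tumour-associated macrophages (TAMs) of vehicle-treated mice were described from 6 libraries, taken by their labels from a series of 12. Each of the 6 held 100 CD45+CD11b+F4/80high cells, sorted on day 7 from MC38 tumours of wild-type (WT) mice that were given DMSO, the solvent of the drug used in the rest of the series. MC38 is a mouse colon adenocarcinoma line, inoculated into the skin, and DMSO was injected into the peritoneum on the day before and every other day thereafter. All mice were WT on a C57BL/6 background, so neither a transgene nor a deletion was involved. The methods assign a mouse to each library, whereas a figure legend gives 4 mice for 6 libraries, and the labels call the replicates independent library preparations. Replicates 1 to 6 were treated as independent here, and p-values measure the spread between libraries, which may be partly technical. The other 6 libraries, from mice given picrotoxin, a blocker of the GABA type A receptor, took no part in any comparison.

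TAMs arise largely from blood monocytes that enter the tumour and mature there under colony-stimulating factor 1. They take up and digest dead cells, secrete complement and chemokines, present antigen, and can restrain T cells, for example by breaking down arginine with arginase 1 (Arg1). Several programmes can coexist in such cells, among them an interferon-driven one with Cxcl9 and Gbp2, a complement C1q and lipid-handling one with C1qa and Apoe, and an angiogenic or hypoxic one with Spp1 and Fn1. Bulk libraries of pooled cells give the average of these programmes, and fewer cells of a type cannot be told apart from less RNA per cell.

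Molecules, rather than reads, were counted through a molecular barcode in the primer. A library held 253187 ± 34093 molecules (SD, n = 6; lowest 219630, highest 309617), which is 2532 ± 341 molecules per sorted cell. Between 9939 and 10866 genes had at least 1 molecule in a library, 8103 genes had one in every library, and 4069 genes reached a mean of at least 10 molecules. These 4069 genes took 89.5% ± 0.62 of all molecules (SD, n = 6) and form the basis of the tests of spread. All levels are given as counts scaled to the sum of a library and multiplied by 1e+06 (CPM), and 1 molecule is worth 3.23 to 4.55 CPM. A count of 0 in the smallest library allows up to 13.7 CPM (3 molecules), and such limits cover counting error only.

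The labelled identity was checked first. Transcripts for the sort markers were present in 6 of 6 libraries: Ptprc, which encodes CD45, at 512 ± 112 CPM, Itgam, which encodes CD11b, at 596 ± 168 CPM, and Adgre1, which encodes F4/80, at 306 ± 62.8 CPM (SD, n = 6). Csf1r, the receptor for colony-stimulating factor 1, stood at 931 ± 137 CPM, C1qa at 1904 ± 304 CPM and Arg1 at 1767 ± 380 CPM. All 5 macrophage markers together took 0.403% of the molecules of replicate 3, the lowest library, and 0.618% of those of replicate 4, the highest. Markers of other haematopoietic cells were close to absent. The T and NK cell list gave 2 molecules over all libraries, the B cell list 8, the dendritic cell list 23 and the neutrophil list 31, against 8390 molecules of the macrophage list, and the erythroid and platelet list gave 0. The lists for endothelium and for MC38 epithelium gave 29 molecules and 1 molecule. Xist was at 0 in every library, and the Y-linked Ddx3y had 16 to 29 molecules in each.

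Transcripts related to fibroblasts and matrix were the exception among the markers of other cells. They took 0.0082%, 0.00771%, 0.09%, 0.0112%, 0.297% and 0.0446% of the molecules of replicates 1 to 6. Replicate 5 thus stood highest, replicates 3 and 6 followed, and replicates 1, 2 and 4 were low. All 13 members had at least 1 molecule. Because of this difference, the total number of genes called for spread, the class shares and the ratios were also computed without replicates 3 and 5, whereas the counts of called members of each class were not.

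The libraries resembled each other closely. Pearson correlation of log2(CPM + 1) across the 4069 genes ran from 0.876 to 0.928 over the 15 pairs, with a median of 0.907; it is a description across genes, which are not replicates. Replicates 1 and 2 correlated at 0.924 and replicates 3 to 6 among themselves at 0.903 to 0.928, while pairs across these sets gave 0.876 to 0.913. No pair agreed within sampling noise, as chi-square per degree of freedom lay between 1.32 (replicates 1 and 2) and 3.15 (replicates 1 and 3). The 6 were therefore counted as separate libraries. This measure cannot tell whether any of them came from the same mouse.

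A few transcripts dominated the pool. The ribosomal RNA precursor Rn45s alone took 10.1% ± 2.42 of the molecules (SD, n = 6), from 7.37% in replicate 1 to 13.7% in replicate 3. The 10 most abundant rows took 16.4%, the top 100 took 32.7% ± 1.49 and the top 500 took 55.4%. Of the top 100, 49 encoded cytosolic ribosomal proteins, 6 belonged to the actin cytoskeleton, 5 to the lysosome, 4 to translation and 4 to chaperones, and 16 were in none of the 19 functional classes examined. Dividing by transcript length kept 66 of these 100 in the top 100. Whether counts of molecules scale with transcript length in these libraries was not tested.

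**Figure D1:**
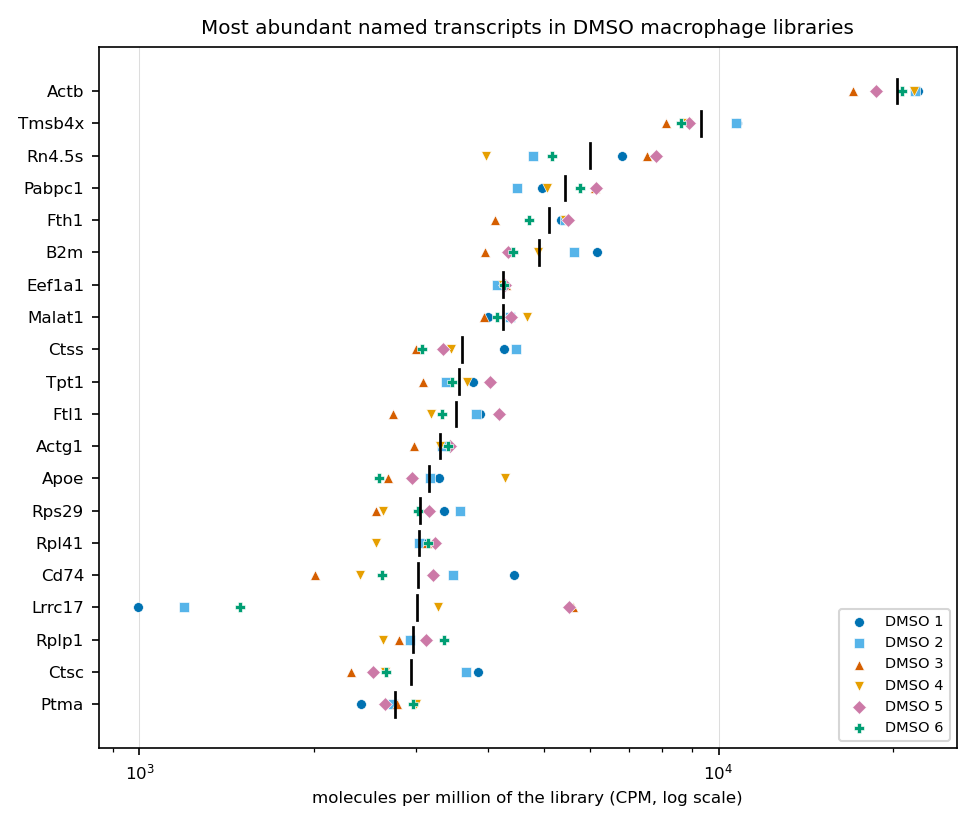
CPM (log scale) of the 20 named transcripts with the highest mean, in each of the 6 DMSO libraries (points) with the mean (black bar). Actb lies between 17101 and 22105 CPM, Eef1a1 is nearly the same in all libraries, and Lrrc17 spreads from 993 to 5602 CPM.

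Beta-actin (Actb) led the protein-coding transcripts in all 6 libraries, at 22105, 21805, 17101, 21734, 18670 and 20713 CPM in replicates 1 to 6. Thymosin beta 4 (Tmsb4x), which binds monomeric actin, followed at 9324 ± 1132 CPM (SD, n = 6). Per kilobase of transcript their order turned, with 10791 CPM per kilobase for Tmsb4x and 10601 for Actb, a difference smaller than the spread of either. These proteins build the cortex with which macrophages crawl and engulf.

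Several of the next transcripts encode proteins of iron storage, antigen processing and lipid export. The ferritin chains Fth1 and Ftl1, which store iron, stood at 5089 ± 559 and 3523 ± 529 CPM, and B2m, the light chain of MHC class I, at 4895 ± 848 CPM (SD, n = 6). Cathepsin S (Ctss), a protease of the antigen-processing compartment, reached 3602 ± 619 CPM, cathepsin C (Ctsc) 2945 ± 642 CPM and the MHC class II chaperone Cd74 3026 ± 872 CPM. Apolipoprotein E (Apoe), which carries lipid out of the cell, had a median of 3064 CPM, with 2587 in replicate 6 as the lowest and 4273 in replicate 4 as the highest. Per kilobase, B2m ranked 6th, Ftl1 10th, Ctss 16th, Fth1 20th, Apoe 24th and Cd74 29th among all rows with a known length. The poly(A)-binding protein Pabpc1, at 5423 ± 681 CPM, the elongation factor Eef1a1, at 4252 ± 54.1 CPM, and the nuclear RNA Malat1, at 4250 ± 275 CPM, completed the leading group. The small RNA gene Rn4.5s, at 6005 ± 1577 CPM, also ranked among the first 5 rows. Transcripts of Actb, Pabpc1, Eef1a1, Malat1, Fth1, Ftl1, Itgam, Ccr2 and Ly6a share stretches of 100 bases with other genes or pseudogenes. So do those of Gapdh, Ppia, Hspa8, Spp1 and most ribosomal protein genes, among others. Part of the counts of all these genes is uncertain.

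Functional classes were then compared by their share of the molecules in each library. The 19 classes covered 34.7% ± 1.81 of all molecules (SD, n = 6), or 38.5% once Rn45s was left out. The spread of each gene over libraries was tested against counting noise (likelihood ratio test in edgeR, Benjamini-Hochberg adjustment over 4069 genes), and 425 genes had an adjusted p under 0.05, which is 10.4% of those tested. Among the 789 genes with a mean of at least 50 molecules, 253 did, or 32.1%. Class members are mostly abundant, so the latter percentage stands beside their counts of called genes. It is a rough guide, since the share called rose with level. It was 75 of 422 genes with a mean of 50 to 100 molecules, 149 of 332 with 100 to 500 and 29 of 35 with 500 or more. The count of a class thus also reflects the level of its members, and classes were not matched for level.

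**Figure D2:**
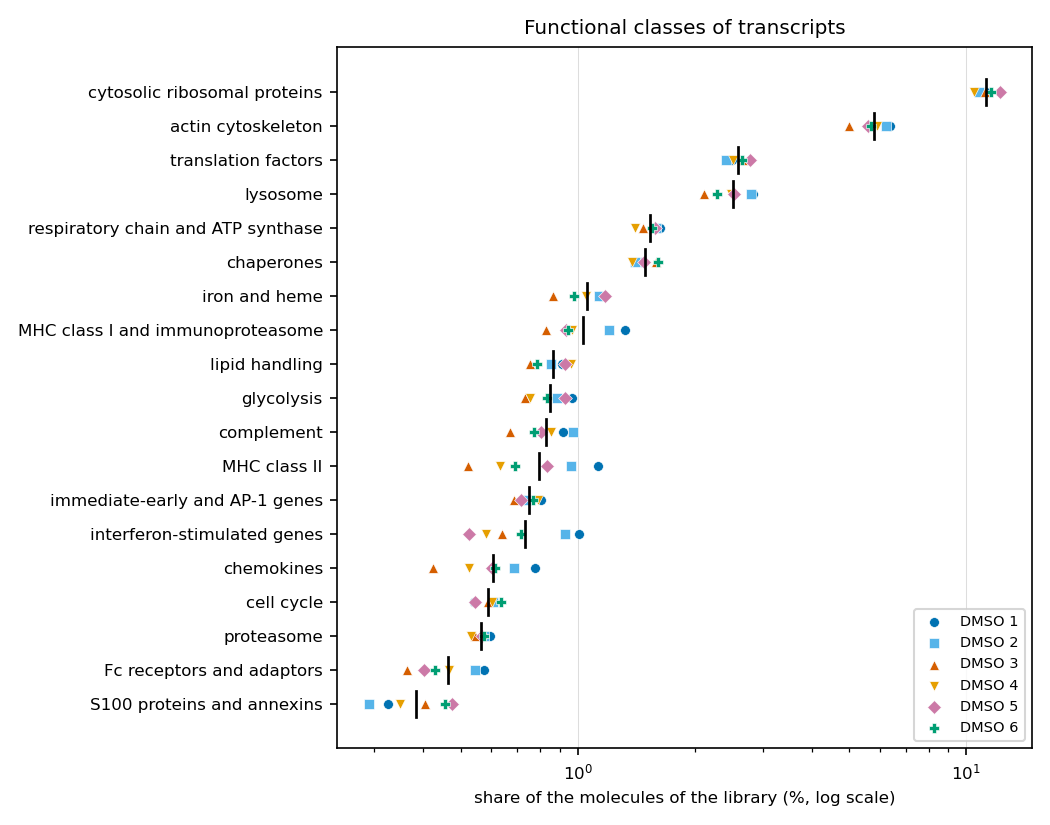
Share of the molecules of a library (percent, log scale) taken by each of 19 functional classes in the 6 DMSO libraries (points), with the mean (black bar). Ribosomal proteins lie between 10.5% and 12.3%, the proteasome between 0.530% and 0.595%, and MHC class II between 0.522% and 1.13%.

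Genes of translation took the largest share of molecules. The 82 cytosolic ribosomal proteins took 11.2% ± 0.62 (SD, n = 6), and 26 of 81 with a mean of at least 50 were called for spread. Rps29, Rpl41 and Rplp1 led them at 3051 ± 399, 3037 ± 244 and 2965 ± 251 CPM. Translation factors added 2.59% ± 0.14, with 5 of 25 such genes called, among them Pabpc1 (adjusted p = 2.05e-17 in edgeR) and Tpt1 (2.44e-04), while Eef1a1 was not (0.994). Chaperones took 1.49% ± 0.09, led by Ppia, Hspa8 and Hsp90ab1.

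The actin cytoskeleton formed the next class with 5.79% ± 0.49 (SD, n = 6), from 5.0% in replicate 3 to 6.35% in replicate 1. Of 41 members with a mean of at least 50, 10 were called, Actb and Tmsb4x among them. Gamma-actin (Actg1) was not (3305 ± 171 CPM, adjusted p = 0.380 in edgeR), with replicate 3 at 2975 CPM and the others between 3300 and 3443 CPM.

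Digestion and antigen handling came after this. The 55 lysosomal genes took 2.51% ± 0.28 (SD, n = 6), and 13 of 29 with a mean of at least 50 were called. Besides Ctss and Ctsc, their leader was prosaposin (Psap), the precursor of the sphingolipid activator proteins, at 2060 ± 424 CPM. MHC class I with the immunoproteasome took 1.03% ± 0.19 and had 7 of 9 called, MHC class II took 0.795% ± 0.225 with 6 of 6, and the Fc receptors with their adaptors took 0.463% ± 0.082 with 5 of 7. The shared signalling chain Fcer1g stood at 1501 ± 275 CPM and the low-affinity receptor Fcgr3 at 973 ± 175 CPM; transcripts of Fcgr3 and Fcgr2b share sequence. Of the constitutive proteasome, 0 of 13 subunits with a mean of at least 50 were called. Among all 31 subunits with a mean of at least 10, where 10.4% of genes were called, edgeR and a chi-square test called 0, and 3 had an unadjusted p under 0.05 in edgeR. Its leading subunits stood at 317 ± 57 (Psmb1), 307 ± 26.6 (Psma4) and 306 ± 27.2 CPM (Psma7), and the class took 0.564% ± 0.023 of the molecules.

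Energy metabolism was spread over many moderate transcripts. The nuclear-encoded respiratory chain and ATP synthase took 1.54% ± 0.08 (SD, n = 6), with no member in the top 100, 2 of 31 called at a mean of at least 50, and Atp5b, Cox8a and Atp5g3 in the lead at 656 ± 65.9, 537 ± 34.6 and 486 ± 66.7 CPM. Glycolysis took 0.850% ± 0.096, led by Gapdh (1946 ± 273 CPM) and followed by Pkm and Ldha, and 5 of 11 were called. The iron and heme class took 1.06% ± 0.12, most of it ferritin.

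The remaining classes are of mixed function. Chemokines took 0.604% ± 0.122 (SD, n = 6), and 9 of 9 with a mean of at least 50 were called. Cxcl9, a ligand of the T cell receptor Cxcr3, led at 1313 ± 449 CPM, and Ccl2, which draws monocytes, stood at 776 ± 160 CPM. Interferon-stimulated genes took 0.732% ± 0.195 with 9 of 11 called, and complement 0.831% ± 0.107 with 4 of 6. The class of lipid-handling and lipid-associated macrophage genes, called lipid handling below, took 0.866% ± 0.082 with 5 of 7. It was led by Apoe and by the galectins Lgals1 and Lgals3 at 1526 ± 162 and 1100 ± 150 CPM. Immediate-early genes, whose RNA rises within minutes of a stimulus and also during tissue digestion, took 0.750% ± 0.045 with 5 of 13 called, led by Fos (1160 ± 112 CPM), Btg1 and Klf6. Cell cycle genes took 0.587% ± 0.037, with Tubb5 at 1018 ± 96.7, Ccnd1 at 776 ± 111 and H2afz at 748 ± 69.6 CPM. Of the 32 cell cycle genes, 8 had a mean of at least 50, of which 4 were called. The share of this class is not a measure of dividing cells. S100 proteins and annexins took 0.383% ± 0.074. Replicate 3, where the Rn45s share was highest, had the lowest share in the classes for actin, lysosome, iron, both MHC groups, lipid handling, complement, chemokines, glycolysis, immediate-early genes and Fc receptors, and the part of Rn45s or of matrix-rich cells in this was not tested.

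Ratios between macrophage programmes were taken within each library, so that depth and scaling cancel. For 12 ratios the mean log2 value was tested against 0 with an exact two-sided sign-flip permutation test, whose smallest p with 6 libraries is 0.0312, or 0.0341 after Benjamini-Hochberg adjustment over the 12. With only 4 independent units the smallest p would be 0.125, so every call of a ratio rests on the 6 libraries being independent. Transcripts differ in length, so each ratio is also given per kilobase, as an alternative scale that counts of molecules may not need.

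**Figure D3:**
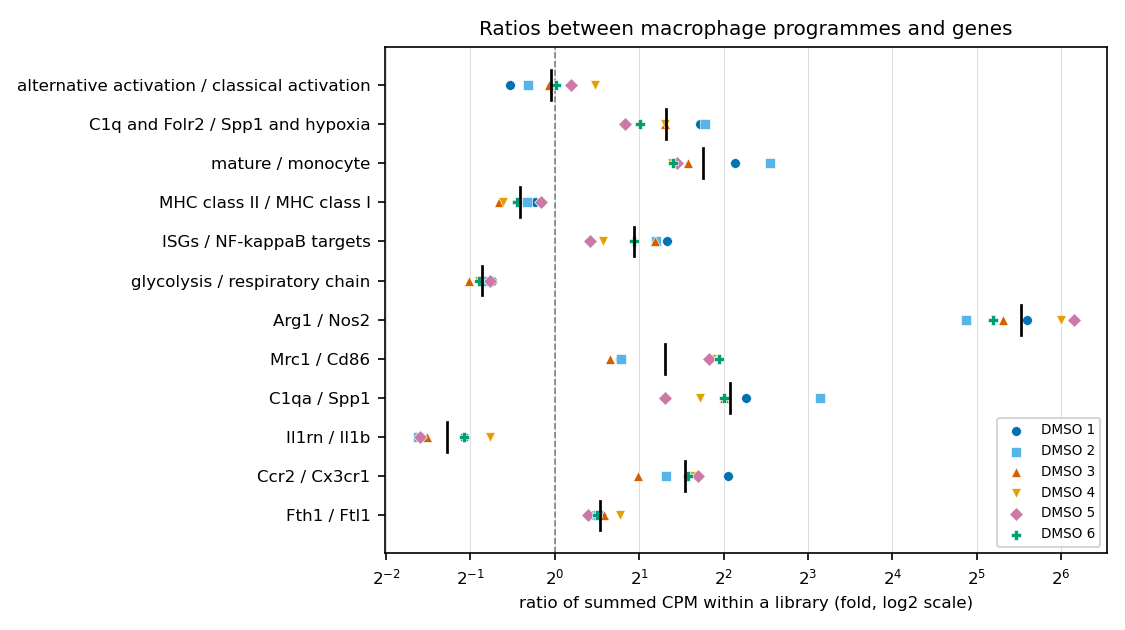
Ratio of summed CPM within a library (fold, log2 scale) for 12 pairs of programmes or genes in the 6 DMSO libraries (points), with the geometric mean (black bar) and a dashed line at 1. Alternative over classical activation straddles 1, whereas the other 11 ratios lie on 1 side of it in every library.

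The balance of alternative and classical activation did not differ from 1 beyond the spread between libraries. The summed ratio of 13 alternative to 13 classical genes was 0.692, 0.805, 0.950, 1.39, 1.15 and 1.01 in replicates 1 to 6, with a geometric mean of 0.972 (log2 ratio -0.04 ± 0.36, SD, n = 6; exact permutation test, adjusted p = 0.812). Replicates 1 to 3 lay below 1 and replicates 4 to 6 above it. As the mean of log2(CPM + 1) over members, in which rare and abundant members weigh alike, the difference was -1.88 (exact permutation test, adjusted p = 0.0375). Both sides rested on few transcripts. Arg1, the matrix crosslinker Tgm2 (1031 ± 295 CPM) and the mannose receptor Mrc1 (280 ± 117 CPM) made up nearly all of the alternative side, with Retnla and Ccl17 at 0 in all libraries and Chil3 at 0 to 11 molecules. Cxcl9, Cxcl10 (715 ± 297 CPM) and Il1b (683 ± 140 CPM) made up most of the classical side, with Il12a at 0 and Tnf at 63.4 ± 25.7 CPM.

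Single genes gave uneven answers to the same question. Arg1 exceeded Nos2, which competes with it for arginine, by 48.1-, 29.3-, 39.7-, 63.9-, 71.2- and 36.4-fold in replicates 1 to 6 (geometric mean 45.8-fold; 130-fold per kilobase; exact permutation test, adjusted p = 0.0341, 6 of 6 libraries). Only 7 to 17 molecules of Nos2 were counted per library, so the value in a given library is loose. Mrc1 exceeded Cd86, a costimulatory ligand of T cells, by 1.71-, 1.72- and 1.58-fold in replicates 1 to 3 and by 3.62-, 3.54- and 3.85-fold in replicates 4 to 6, on 41 to 116 and 24 to 32 molecules. Per kilobase the mean of this ratio was 1.17 and no longer past the threshold (exact permutation test, adjusted p = 0.375). The antagonist Il1rn stood below the cytokine Il1b that it opposes in 6 of 6 libraries, at 0.325- to 0.589-fold (mean 0.413; per kilobase 0.219; exact permutation test, adjusted p = 0.0341).

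The C1q and Folr2 programme outweighed the Spp1 and hypoxia programme in all libraries, by 3.29-, 3.42-, 2.46-, 2.47-, 1.78- and 2.01-fold in replicates 1 to 6 (geometric mean 2.5; 4.30 per kilobase; exact permutation test, adjusted p = 0.0341). Replicates 1 and 2 lay highest and replicates 5 and 6 lowest. As the mean of log2(CPM + 1) over members the difference was 0.28 and not past the threshold (exact permutation test, adjusted p = 0.102). Apoe and the C1q chains carried the first side, which took 1.23% ± 0.15 of molecules, while Folr2, which gives the programme its name, had 3 to 19 molecules per library and Lyve1, Gas6 and Cd163 had 6 or fewer. Arg1 and the fibronectin gene Fn1 carried the second side. As a pair, C1qa exceeded Spp1, which encodes osteopontin, 4.21-fold (6.10-fold per kilobase), from 2.47-fold in replicate 5 to 8.84-fold in replicate 2.

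Genes of mature macrophages outweighed those of monocytes, by 4.39-, 5.84-, 2.98-, 2.62-, 2.73- and 2.64-fold (geometric mean 3.36, 12.9 per kilobase, exact permutation test, adjusted p = 0.0341). Replicates 1 and 2 stood above the others. Fn1, which was lower in replicates 1 and 2, is in the denominator of both this ratio and that of C1q to Spp1. The order of libraries in the 2 ratios is therefore not independent. The sort kept cells with a high level of a macrophage surface marker. The paper sorted tumour monocytes as a separate population without that marker. The direction of the ratio was therefore largely set by the sort, and its test does not show how far these cells had matured. The monocyte side rested on Fn1, Ccr2 and Thbs1, while Ly6c2, the surface marker of inflammatory monocytes, had 94.1 ± 24.6 CPM. Without Fn1, which several cell types express, the mean log2 ratio was 2.71 in place of 1.75, an alternative chosen after seeing the data. For the C1q and Folr2 to Spp1 and hypoxia programmes it was 1.88 in place of 1.32. Both chemokine receptors of the lineage were transcribed, and Ccr2 exceeded Cx3cr1 2.92-fold on average (1.97 to 4.14; per kilobase 2.29; exact permutation test, adjusted p = 0.0341).

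The next ratios are of sums over lists of unequal length, so their size partly reflects the number of genes. The 33 interferon-stimulated genes exceeded the 24 NF-kappaB targets 1.92-fold (1.33 in replicate 5 to 2.5 in replicate 1, per kilobase 1.71). The 10 genes of MHC class II reached 0.753-fold of the 19 of MHC class I (0.631 to 0.890, per kilobase 0.572). Glycolysis reached 0.550-fold of the respiratory chain (0.494 to 0.596, per kilobase 0.250). Each held its side in 6 of 6 libraries (exact permutation test, adjusted p = 0.0341). The glycolysis ratio compares 16 genes with 78, and as the mean of log2(CPM + 1) over members the difference turned to 1.12 (exact permutation test, adjusted p = 0.0375). For MHC class II against class I that difference was -0.16 and not past the threshold (exact permutation test, adjusted p = 0.25). For interferon-stimulated genes against NF-kappaB targets it was 0.69 (exact permutation test, adjusted p = 0.0375). Fth1 exceeded Ftl1 1.45-fold in molecules and reached 0.681-fold of it per kilobase, so which ferritin chain was the more abundant depends on the scale.

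C1q and MHC class II are multichain proteins whose genes lie close together. Their chains rose and fell broadly together across libraries, with replicate 3 lowest, as it was for several other classes. Whether other genes moved together as closely was not tested. The C1q chains, which join into the recognition unit of the classical complement pathway, lie within chromosome 4, 136880129 to 136898803 (GRCm38, minus strand; protein coding). C1qa had 2031, 2309, 1522, 2147, 1694 and 1721 CPM, C1qb 2814, 2922, 1988, 2267, 2233 and 2283 CPM, and C1qc 2345, 2579, 1818, 2223, 2081 and 2012 CPM in replicates 1 to 6. Each chain was lowest in replicate 3 and highest in replicate 2. Although each varied over libraries with a coefficient of variation of 12.3% to 16%, the C1qb to C1qc ratio was 1.11 ± 0.06 (SD, n = 6), a coefficient of variation of 5.56%. That coefficient was 6.11% for C1qa to C1qc and 10.2% for C1qa to C1qb.

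The class II genes H2-Ab1 (34257689 to 34269419, plus strand), H2-Aa (34282744 to 34287823, minus strand) and H2-Eb1 (34305867 to 34316674, plus strand) lie on chromosome 17 of GRCm38 and encode chains of the I-A and I-E heterodimers. H2-Aa had 2113, 1915, 1070, 1298, 1579 and 1411 CPM in replicates 1 to 6, H2-Ab1 1976, 1718, 879, 969, 1326 and 1205 CPM, and H2-Eb1 1580, 1379, 648, 953, 1348 and 908 CPM. Replicate 1 was the highest and replicate 3 the lowest for each, as for Cd74, which ran from 2009 to 4430 CPM. The ratio of Cd74 to H2-Aa was 1.92 ± 0.11 (SD, n = 6), with a coefficient of variation of 5.97% against 28.8% and 25% for the genes alone. Between the class II chains themselves the coefficient was larger, at 7.86% for H2-Aa to H2-Ab1, 12% for H2-Aa to H2-Eb1 and 13.2% for H2-Ab1 to H2-Eb1. H2-Aa and H2-Ab1 encode chains of I-A and H2-Eb1 a chain of I-E, so ratios with H2-Eb1 are not within a heterodimer. RNA of H2-Eb1 alone does not show that an I-E heterodimer was formed, and protein was not measured. The ratios of C1q and class II genes were chosen for their related products and carry no test. The ratio of the ribosomal genes Rpl13a and Rps4x, both among the steadiest, had a coefficient of 6.55%. A steady ratio is thus not particular to C1q or class II genes.

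Promoter sequences of some of these genes are shown as a description, and whether they bear on the levels was not tested. Each is given as the 200 bases before the annotated start (RefSeq, GRCm38.p6), 5′ to 3′ on the strand of the gene. Capitals mark ATTGG, the core of the Y box of class II promoters, or GAGGAA, a core bound by the macrophage factor PU.1, on either strand.
H2-Aa, chr17:34287824-34288023, minus strand: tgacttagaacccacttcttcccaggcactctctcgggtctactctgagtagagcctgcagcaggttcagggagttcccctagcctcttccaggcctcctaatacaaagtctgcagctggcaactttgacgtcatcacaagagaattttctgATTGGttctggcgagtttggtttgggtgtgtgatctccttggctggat
H2-Eb1, chr17:34305667-34305866, plus strand: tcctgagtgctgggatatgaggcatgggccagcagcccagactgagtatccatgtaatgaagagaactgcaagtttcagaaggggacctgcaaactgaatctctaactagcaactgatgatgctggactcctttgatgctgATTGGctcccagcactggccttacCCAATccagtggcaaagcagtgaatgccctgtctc
C1qb, chr4:136886201-136886400, minus strand: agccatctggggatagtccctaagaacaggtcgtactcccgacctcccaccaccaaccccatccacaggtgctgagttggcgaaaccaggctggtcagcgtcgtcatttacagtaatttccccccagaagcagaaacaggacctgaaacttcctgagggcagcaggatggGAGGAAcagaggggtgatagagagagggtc
C1qc, chr4:136892915-136893114, minus strand: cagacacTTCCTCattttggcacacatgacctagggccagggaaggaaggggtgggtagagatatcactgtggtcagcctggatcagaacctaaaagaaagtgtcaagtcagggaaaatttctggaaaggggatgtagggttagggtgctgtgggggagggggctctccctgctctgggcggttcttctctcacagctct
ATTGG was found 48 bases before the start of H2-Aa and 59 bases before that of H2-Eb1, with a reverse match 35 bases before the latter. GAGGAA was found 30 bases before the start of C1qb and, in reverse, 193 bases before that of C1qc. Among 32851 promoters of the same length, ATTGG or its reverse occurred in 29.3% and GAGGAA or its reverse in 19%, so these matches are common and describe the letters only. H2-Ab1 and C1qa are named without a sequence.

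Library-to-library spread was then described for the 4069 genes with a mean of at least 10 molecules. The median coefficient of variation of CPM was 22.2% (interquartile range 16% to 30.1%), and the common biological coefficient of variation, which leaves out counting noise, was 15.5%. For the 1880 genes with a mean of 10 to 20 molecules the median coefficient was 27.7%, against 27.1% from counting alone, and 64 were called. With 20 to 50 molecules 108 of 1400 genes were called, and with 50 to 100 molecules 75 of 422. For the 332 genes with 100 to 500 molecules it was 12.4% against 7.37%, and 149 were called. Of 35 genes with 500 molecules or more, 29 were called. An unadjusted p under 0.05 was given for 880 genes.

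**Figure D4:**
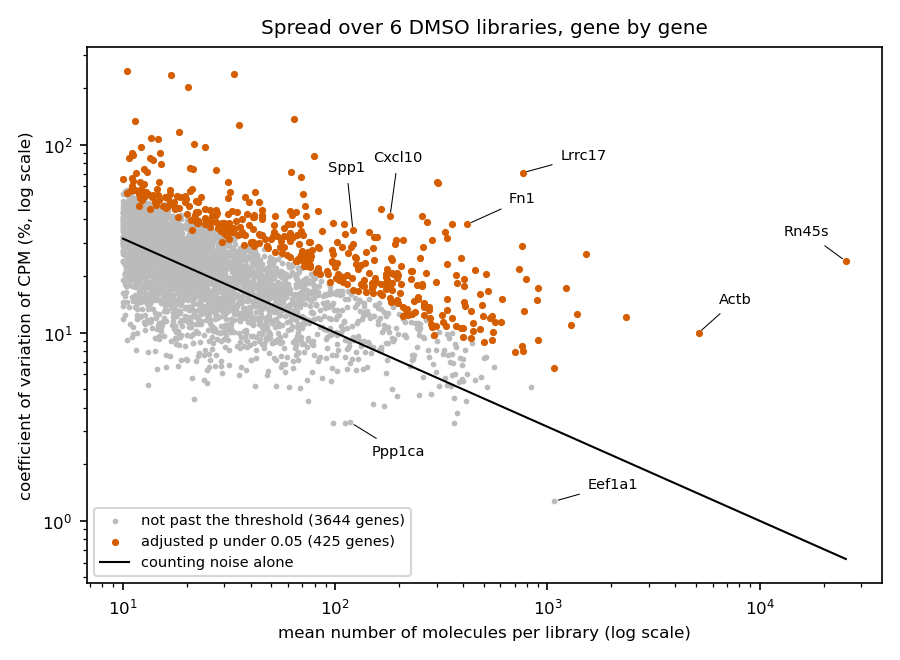
Coefficient of variation of CPM over 6 DMSO libraries (percent, log scale) against the mean number of molecules per library (log scale) for 4069 genes, with the 425 genes of an adjusted p under 0.05 in orange and the value from counting noise alone as a line. Genes below about 20 molecules scatter around the line, and most of those above 500 molecules lie over it.

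The number of called genes depended on which libraries entered. Leaving out each replicate in turn gave 325 to 404 genes, replicates 3 to 6 alone gave 175, and leaving out the matrix-rich replicates 3 and 5 gave 233. Of the 425 called genes, 132 were highest in replicate 1 and 154 lowest in replicate 3. In 147 of them both replicates 1 and 2 lay above the other 4 libraries, and in 69 below them, beside 519 and 419 of all 4069 genes tested.

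The greatest spread among genes with a mean of at least 100 molecules fell on a mixed group. Interferon-related members were Cxcl10 (856, 1157, 418, 384, 621 and 856 CPM in replicates 1 to 6), the GTPase gene Gbp2 (2063, 2168, 1209, 913, 965 and 1315 CPM) and its relative Iigp1, and the surface antigen gene Ly6a (1730, 1439, 844, 653, 777 and 820 CPM). Gbp2, Ly6a and the prothrombinase gene Fgl2 (661 ± 300 CPM) were higher in replicates 1 and 2 than in each other library. The predicted gene AW112010, H2-Eb1 and the microglial and macrophage calcium-binding gene Aif1 (613 ± 198 CPM) also belonged to the group.

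Fn1 showed the opposite order, with 924 and 801 CPM in replicates 1 and 2 and 1661, 2207, 2038 and 2038 CPM in replicates 3 to 6 (adjusted p = 5.70e-60 in edgeR). S100a6, a calcium-binding protein of motile cells, ran from 617 CPM in replicate 2 to 1478 CPM in replicate 5, and Spp1 from 261 CPM in replicate 2 to 686 CPM in replicate 5. Thbs1, which encodes thrombospondin, had 200, 103, 113, 429, 394 and 365 CPM, low in replicates 1 to 3 and high in replicates 4 to 6 (adjusted p = 9.65e-19 in edgeR). Mrc1 followed the same split (187, 184, 178, 465, 332 and 336 CPM, adjusted p = 2.82e-09 in edgeR). Replicate 4 was among the highest for both Fn1 and Mrc1 and low in the matrix list. Replicates 3, 5 and 6, which led that list, also lay above replicates 1 and 2 for Fn1. The part of matrix-producing cells in either gene was not tested.

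Among the rows with the largest spread, several have an uncertain source. Lrrc17 had 993, 1195, 5602, 3272, 5527 and 1489 CPM in replicates 1 to 6, high in replicates 3 to 5. This gene lies within Fbxl13 on the opposite strand (chromosome 5, 21543559 to 21575904, GRCm38), and without a stated strand setting reads of the pair cannot be told apart. The rows Kif3a and Ccdc36, on chromosomes 11 and 9, differed by at most 9 molecules in every library, although their transcripts share no stretch of 100 bases, at 86 to 643 and 83 to 639 molecules.

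**Figure D5:**
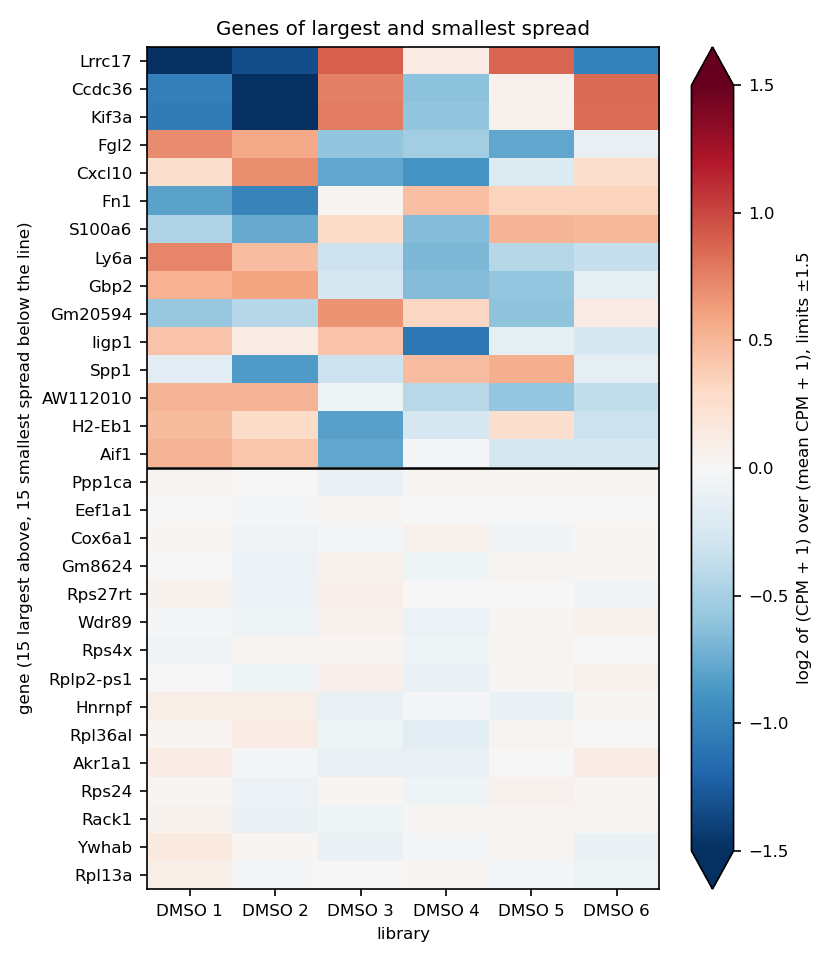
Log2 of CPM + 1 over the gene's mean CPM + 1 (colour) in each DMSO library for the 15 genes of largest and the 15 of smallest spread among those with a mean of at least 100 molecules. Replicates 1 and 2 are red for Fgl2, Ly6a and Gbp2 and blue for Fn1, and the lower block is close to white throughout.

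The steadiest transcripts were mainly ribosomal and housekeeping genes, although 26 of 81 ribosomal protein genes with a mean of at least 50 were called for spread. Eef1a1 had 4280, 4151, 4301, 4241, 4285 and 4257 CPM, a coefficient of variation of 1.27%. Ppp1ca, the catalytic chain of protein phosphatase 1, stood at 465 ± 15.5 CPM and Cox6a1, a subunit of cytochrome oxidase, at 441 ± 15 CPM (SD, n = 6). Rps4x, Rps24, Rpl13a, Rpl36al, Rack1, Hnrnpf, Akr1a1, Ywhab and Wdr89 belonged to the same set, along with the copies Rps27rt, Gm8624 and Rplp2-ps1, whose reads may come from parent genes. Their adjusted p ran from 0.897 to 0.995 in edgeR, as the choice by smallest spread fixes.

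Genes of low level but extreme spread lay outside the rule for naming and were picked after their values were seen. Of 11 genes with a coefficient of variation over 100%, most encode matrix or its processing. Col1a1 had 0, 0, 1, 1, 195 and 4 molecules in replicates 1 to 6, Col1a2 had 2, 3, 1, 7, 106 and 3, and Col3a1 had 7, 4, 94, 4, 233 and 43. Sparc, a matrix glycoprotein, had 3, 4, 36, 5, 123 and 40. In addition, Mmp3, a stromal metalloproteinase, had 63 molecules in replicate 5 and 0 elsewhere, and the acute-phase gene Saa3 had 98 there and at most 1 elsewhere. Ccl5, a chemokine of T cells and activated myeloid cells, had a coefficient of variation of 97.2%, just under that limit, and was high in other libraries, with 56, 45, 3, 8, 14 and 20 molecules. All of these were called (adjusted p in edgeR between 3.51e-127 for Col1a1 and 1.18e-19 for Ccl5).

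Factors that set macrophage identity were present at moderate levels. PU.1 (Spi1), the master factor of the myeloid lineage, stood at 266 ± 42.9 CPM, Cebpb at 283 ± 31.5 CPM and Irf8 at 527 ± 120 CPM (SD, n = 6). Irf8 was called for spread (adjusted p = 1.02e-04 in edgeR), whereas Spi1 and Cebpb were not (0.510 and 0.703). Irf8 ran from 352 CPM in replicate 3 to 683 CPM in replicate 1. Among the cytokine receptor chains named here, Csf1r was the highest, and the chains of the GM-CSF receptor, Csf2ra and Csf2rb, stood at 184 ± 36 and 250 ± 52.7 CPM. The interferon-gamma receptor chains Ifngr1 and Ifngr2 stood at 127 ± 24.1 and 161 ± 27.2 CPM, the TNF receptors Tnfrsf1a and Tnfrsf1b at 198 ± 42.1 and 72.3 ± 23.5 CPM, and the IL-10 receptor chains Il10ra and Il10rb at 112 ± 17.1 and 86.1 ± 19.6 CPM. None of these 8 chains was called by edgeR (lowest adjusted p = 0.0572, for Csf2rb, with an unadjusted p under 0.05 for 1) or by a chi-square test. Over all genes, 64 of 1880 were called with a mean of 10 to 20 molecules, 108 of 1400 with 20 to 50 and 75 of 422 with 50 to 100. With shares this low, 0 of 8 is not read as a result about these chains. Per kilobase, Csf1r stood at 198 CPM and the 8 chains between 18.9 (Tnfrsf1b) and 92 CPM (Tnfrsf1a).

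Some transcripts of low count, picked after their values were seen, appeared mainly in replicate 6. Il10 had 4 molecules in replicate 6 and 0 in replicates 1 to 5. Il12b had 26 molecules in replicate 6, 3 in replicate 5 and 0 elsewhere, and Ccl22 and Ccr7, which mature dendritic cells express, had 3 molecules each in replicate 6 only. Other genes read for mature dendritic cells, among them Fscn1, Cd83 and Il4i1, are not reported here. Whether cells of another type contributed to replicate 6 was not tested. Its dendritic cell list held 0.00226% of molecules, within the range of the other libraries (0 to 0.00273%). That list holds Ccr7 but not Il12b, Ccl22, Fscn1 or Cd83, so it is no measure of mature dendritic cells.

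As the series concerns GABA, its receptors, enzymes and transporters were read as well. Of 28 such genes, 24 were at 0 in all 6 libraries, including all 17 listed subunits of the ionotropic receptor. Gad2, a GABA-synthesizing enzyme, had 0 to 2 molecules, and Gabbr1 and Slc6a12 had 1 molecule each in a single library. Slc6a6, the taurine transporter, was the only member with a mean of at least 10 molecules, at 510, 446, 361, 573, 531 and 504 CPM in replicates 1 to 6 (adjusted p for spread = 0.126 in edgeR). For a gene at 0, the level that a count of 0 allows in a single library was 9.69 CPM in the largest and 13.7 CPM in the smallest.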

How the data were processed

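Molecule counts per gene were analysed as deposited: the authors aligned the reads with STAR to mm10, assigned them to genes of a refFlat annotation and collapsed molecular barcodes into counts (per the labels and methods). Versions and the strand setting are not given in the sources used here. Of 24781 gene rows, 26 carry a date in place of a symbol, and 0 belong to spike-ins or the mitochondrial genome. Another 6 columns, of picrotoxin libraries, were not used.

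CPM was computed per library, and log2 values used a pseudocount of 1. Spread was tested for 4069 genes with a mean count of at least 10 by a Poisson likelihood ratio test with TMM scaling in edgeR 4.0.16, with Benjamini-Hochberg adjustment and a threshold of 0.05. The step was tested on simulated data. Ratios were tested by exact two-sided sign flips (64). Lengths are of the longest GENCODE M21 transcript, known for 4024 tested symbols; promoters are from RefSeq. DESeq2 1.42.0 size factors were an alternative. Libraries held 219630 to 309617 molecules, and depth limits genes below about 20 molecules.

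Named genes were the 20 most abundant, up to 3 leading members of each class and programme, genes of the ratios, sort and macrophage markers, 13 factors and receptors, and the 15 with the largest tagwise dispersion and the 15 with the smallest likelihood ratio at a mean count of at least 100. Some genes that the rule names are not reported here. Genes outside this rule are identified as such or belong to a list. The members and lists were chosen with earlier results of these data known.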

Additional observations from a re-analysis of the deposited data

Results flagged for a closer look

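Of 174 sets of 6 values checked for a library far from the others (Dixon's criterion), 21 had one. Chance gives about 1 in 20 such sets, but several of the genes were picked after their values were seen, so the number is not set against chance. Replicate 3 lay low for the share of alternative activation (0.206%), of NF-kappaB targets (0.280%) and of the macrophage markers (0.403%), and for Actg1 (2975 CPM) and Ppp1ca (435 CPM). Replicate 5 lay high for the fibroblast and matrix share (0.297%) and for Col1a1 (704 CPM), Col1a2 (383 CPM), Sparc (444 CPM), Mmp3 (228 CPM) and Saa3 (354 CPM), and low for Il10ra (79.5 CPM). Replicate 6 lay high for Il12b (84.0 CPM), Il10 (12.9 CPM), Ccl22 (9.69 CPM) and Ccr7 (9.69 CPM), the latter pair on 3 molecules each. Replicate 1 lay high for Psmb1 (423 CPM) and Ly6c2 (141 CPM), replicate 2 for Ifngr2 (214 CPM) and the ratio of C1qa to Spp1 (8.84), and replicate 4 low for Rpl41 (2559 CPM). The cause of these values was not tested.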

How the results depend on the processing

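No paired analysis was possible because the replicate numbers are shared only with libraries that enter no comparison here. Spread called 425 genes, and 378 to 431 with other scalings, a chi-square test, no filter, no Rn45s or equal depth, 320 of 789 at a mean count of at least 50, and 325 to 404 when each replicate was left out. It called 175 in replicates 3 to 6 alone and, chosen after seeing the data, 233 without replicates 3 and 5, where fewer libraries entered. The biological coefficient of variation was 13.1% in replicates 3 to 6 and 14.9% to 16.7% when each replicate was left out. When each replicate was left out, the log2 ratio of alternative to classical activation ran from -0.14 to 0.06, and it was 0.15 in replicates 3 to 6 alone, while the other 11 ratios kept their sign in both. Per kilobase, the log2 ratio of alternative to classical activation was 0.021 (exact permutation test, adjusted p = 0.906), that of Mrc1 to Cd86 0.22 (0.375) and that of Fth1 to Ftl1 -0.55 (0.0375). As the mean of log2(CPM + 1) over members, which weighs rare and abundant members alike, alternative to classical was -1.88 (exact permutation test, adjusted p = 0.0375), C1q to Spp1 0.28 (0.102), MHC class II to class I -0.16 (0.25) and glycolysis to respiratory chain 1.12 (0.0375). Without the leading member of each side, MHC class II to class I was -0.17 (exact permutation test, adjusted p = 0.0625). The cause of these changes was not tested. With 4 or 5 libraries the sign-flip test cannot pass the threshold, so only values were compared. The 19 classes took 38.5% without Rn45s and 51% per kilobase, the top 100 took 41.6% per kilobase, and the median correlation was 0.845 by Spearman's rank and 0.942 at a mean count of at least 50.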
